A study of Homo sapiens with 2 samples.

Results

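RARRES2-high cells are one of 3 classes of cells found in a mixture of ovarian tumour lines read with nanopore long reads. They were chosen from the long-read matrix itself. Counts were summed per gene, and cell barcodes with at least 1000 counts were kept. A cell was called RARRES2-high when RARRES2 and TMEM100 together had at least 2 counts and made up at least 75% of the counts of 10 calling genes. Of the 2129 barcodes at that depth, among 2462 in all, 457 were RARRES2-high (21.5%, 95% exact binomial interval 19.7 to 23.3%). The same rule gave 627 ERBB2-high cells, called on ERBB2, NNMT, TSPAN1 and DHRS2, and 730 FOLR1-high cells, called on FOLR1, CLDN3, DEFB1 and CXCL14. A further 315 barcodes fell in no class. In at least 114 of these, RARRES2 and TMEM100 held a share of the calling counts below 75% but no smaller than that of another class. The 21.5% therefore depends on the limit.

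The pool held IGROV1, SK-OV-3 and COV504, established lines from ovarian tumours, mixed in equal parts and untreated as far as the labels say. It was sequenced as 1 Illumina library and 1 PromethION library, and expression was taken from the PromethION library. The labels do not tie a barcode to a line, so the classes are called by their genes. With 1 library there is no replicate and no test: the values below describe these cells, and every interval covers counting error only.

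RARRES2 encodes chemerin, a secreted chemoattractant and adipokine whose expression responds to retinoids. TMEM100 encodes a small membrane protein known from endothelium and downstream of BMP signalling. Ovarian cancer lines differ in how epithelial or mesenchymal they are, in lineage genes and in lost genome segments. Transcript choice, read here as the share of a gene's counts held by each transcript, is a further layer that whole-molecule reads can show.

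The members carried a median of 11 RARRES2 and TMEM100 counts, with a range of 2 to 100, and 13 members had exactly 2. The median share of calling counts was 92.3%, and 279 members had at least 1 count from a calling gene of another class. The 48 members between 75 and 80% had a median of 10.5 such counts beside 3 from the other classes, while the 25 cells just outside, between 70 and 75%, had 8 beside 3. All 457 barcodes were in the barcode list of the Illumina library, which shared all 2462 barcodes with the long-read list. Scrublet, a doublet caller, marked 10 members among 77 barcodes (3.13%), and these were kept in the values given here. Members had a median of 6502 counts (range 1009 to 25670), against 5002 in ERBB2-high and 5344.5 in FOLR1-high cells. After each cell was thinned to 2000 counts, the median number of genes was 1090 in 435 members, 1145 in 593 ERBB2-high cells and 948 in 705 FOLR1-high cells. The thinning left out 22, 34 and 25 shallower cells. Mitochondrial genes held a median of 3.02% of a member's counts, against 2.82 and 7.11%.

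The label came with 4 marker genes, of which RARRES2 and TMEM100 were the calling genes and so show nothing further. RARRES2 (ENSG00000106538, chromosome 7) was present in 93.1% of members at 2000 counts, and TMEM100 in 10.8%. The other markers, RGCC and ANKRD1, were not used by the rule. They came with a label drawn from these same data, so their levels describe the members and are no independent check. RGCC (ENSG00000102760), a regulator of the cell cycle, had 236 counts in members and 0 in both other classes. ANKRD1 (ENSG00000148677), a target of the YAP and TEAD transcriptional programme, had 113 CPM, the class sum of counts scaled to the same total in each class, against 1.48 in ERBB2-high and 4.34 in FOLR1-high cells. RGCC was seen in 29.5% and ANKRD1 in 37.2% of members before thinning, so each was absent from the counts of most members. Calling genes of the other classes were uneven in members. DHRS2 had 0 counts and DEFB1 2 counts, whereas CLDN3 was seen in 13.1% and NNMT in 8.05% of members at 2000 counts. CLDN3 had 79.6 CPM in members against 375 in FOLR1-high cells, and CXCL14 had 5.69 against 625. The rule limits these values, so they set no level of background. Whether they came from stray RNA or from the members' own expression was not tested.

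For several genes described below, CALD1 among them, the transcripts compared differ by internal coding exons, and such exons are shown for 4 genes. In these 4 the transcripts also differ at their ends, which for TPM4 include the first exon. These exons are shown 5′ to 3′ as in the GENCODE 29 transcript, with the exon in capitals and neighbouring coding bases of the same transcript in lower case. VPS29 exon 2 (GRCh38 chr12:110499535-110499546, minus strand) was used more in RARRES2-high cells, and ECT2 exon 4 (chr3:172755483-172755575, plus strand) less. TPM4 exon 2 (chr19:16076047-16076172, plus strand) belongs to a long transcript that took a larger share in RARRES2-high cells than in both other classes. ACOT9 exon 3 (chrX:23734341-23734367, minus strand) separated RARRES2-high from FOLR1-high cells.
VPS29 exon 2: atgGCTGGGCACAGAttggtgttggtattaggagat
ECT2 exon 4: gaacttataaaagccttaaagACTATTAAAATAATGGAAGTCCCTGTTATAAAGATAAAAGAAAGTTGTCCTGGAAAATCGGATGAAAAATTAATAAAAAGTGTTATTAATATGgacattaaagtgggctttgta
TPM4 exon 2: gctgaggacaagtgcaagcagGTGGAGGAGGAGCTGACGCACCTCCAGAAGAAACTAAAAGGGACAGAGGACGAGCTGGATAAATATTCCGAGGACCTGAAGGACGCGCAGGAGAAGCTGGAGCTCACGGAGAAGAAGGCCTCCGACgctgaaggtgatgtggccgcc
ACOT9 exon 3: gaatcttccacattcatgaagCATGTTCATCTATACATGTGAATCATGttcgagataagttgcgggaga
The exons are 12, 93, 126 and 27 bases long and all of them are coding, so each adds whole codons: 4, 31, 42 and 9.

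Gene levels in the RARRES2-high cells were compared with both other classes for the 8468 genes with at least 50 counts in 1 class or more, calling genes left out. Ratios for ranking had 10 CPM added to both sides. In RARRES2-high cells 101 genes (1.19%) were at least 4-fold higher than in both other classes, and 31 (0.366%) were at least 4-fold lower. At a 2-fold limit 488 (5.76%) were higher and 234 (2.76%) lower, and these are the background shares for the gene lists below. The median log2 ratio over all genes was -0.16 against ERBB2-high and 0.14 against FOLR1-high cells, so a gene at a ratio of 1 in CPM stands slightly above the typical gene in the first comparison and slightly below it in the second. All of these values come from the matrix that chose the cells.

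MT1E, a metallothionein that binds zinc and copper, led the genes with higher levels. It had 509 CPM in RARRES2-high cells (1702 counts, interval 486 to 534), 2.07 in ERBB2-high and 2.06 in FOLR1-high cells. PDPN, a mucin-type glycoprotein of mesothelium and lymphatic endothelium, had 281 CPM (interval 263 to 299) against 1.48 and 1.37. Per member at 2000 counts PDPN ran from 0 to 5 with a median of 0, and 70.2% of members had at least 1 count unthinned. VAMP5, a vesicle protein, followed at 207 CPM with 2 and 3 counts in the other classes, a ratio of 351 (interval 96.8 to 2905) and 302 (interval 103 to 1469). PPP1R14A, an inhibitor of myosin phosphatase, had 349 CPM against 7.97 and 1.14. CCL2, a chemokine that attracts monocytes, and ARHGDIB, an inhibitor of small GTPase cycling, had 566 and 394 counts in members and 0 in both other classes. Against the 3 counts per class that a count of 0 allows, CCL2 was at least 191-fold higher than in ERBB2-high cells and at least 247-fold higher than in FOLR1-high cells.

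Other genes of the 25 highest spanned several functions. LCP1, the actin-bundling L-plastin, had 199 CPM against 0.295 and 2.97. PYCARD, the adaptor of inflammasomes, had 164 against 0.295 and 1.14, and IL32, a cytokine, had 122 against 2.36 and 6.63. CDO1, which oxidises cysteine, stood at 186 CPM against 0.59 and 1.14. EBP, an enzyme of cholesterol synthesis, stood at 144 against 3.84 and 0.914, and UCHL1, a deubiquitinase, at 173 against 5.02 and 3.2. IGFBP4, which binds insulin-like growth factors, had 269 CPM against 5.9 and 1.6, and ADIRF had 347 against 23.9 and 3.66. CEACAM6, a cell-surface adhesion molecule, had 128 CPM against 0 and 3.66. The plot of class levels shows that for each of the highest genes drawn the interval in RARRES2-high cells lay above the intervals of both other classes.

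**Figure D1:**
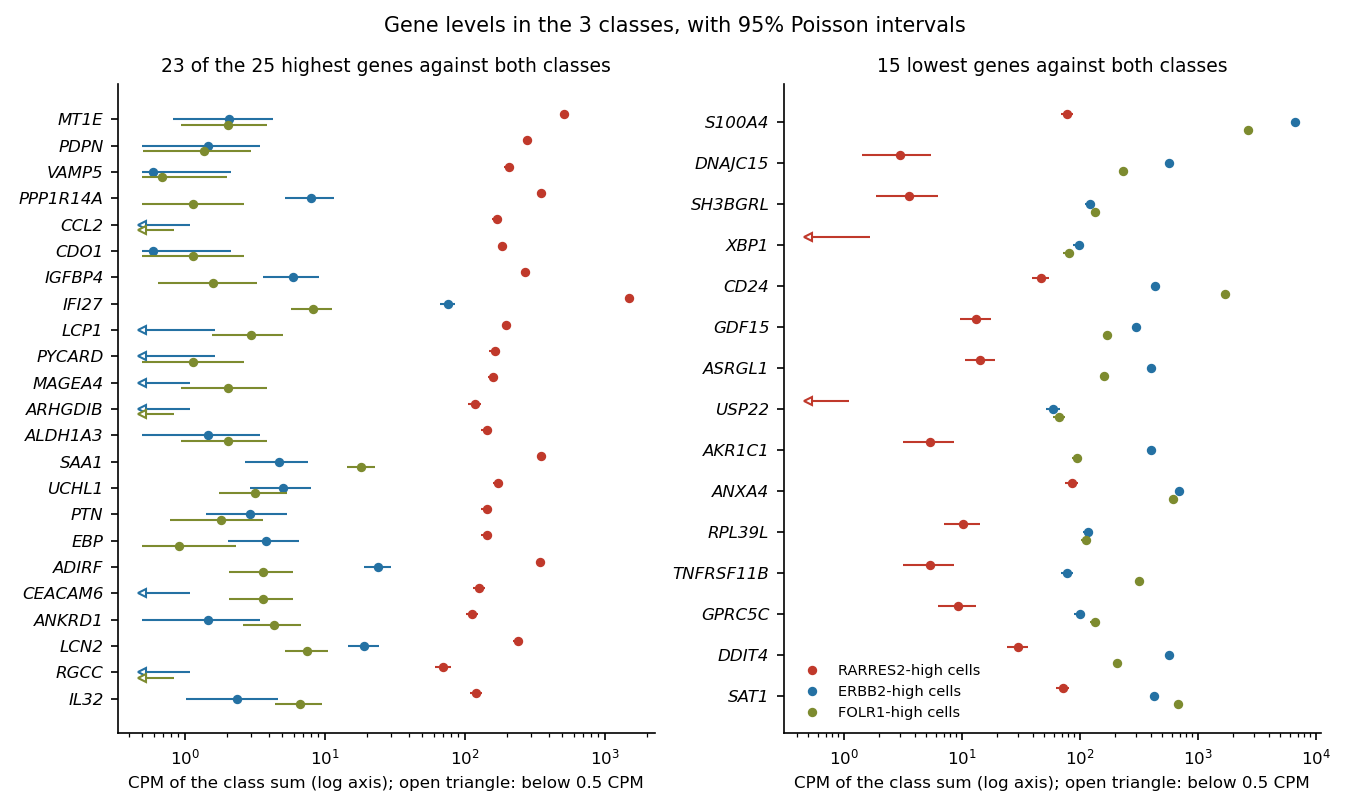
Levels of 23 of the 25 highest genes and of the 15 lowest genes in CPM of the class sum on a log axis, with 95% Poisson intervals for RARRES2-high, ERBB2-high and FOLR1-high cells. Open triangles mark values below 0.5 CPM, and interval ends below 0.5 are drawn at 0.5. MT1E stands at 509 CPM against 2.07 and 2.06, and S100A4 at 77.8 CPM against 6716 and 2672.

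S100A4, a calcium-binding protein linked to motile and mesenchymal cells, was the gene lowest in RARRES2-high cells. It had 77.8 CPM (interval 68.6 to 87.9), against 6716 in ERBB2-high and 2672 in FOLR1-high cells. At 2000 counts it was seen in 8.97% of members, against 97.8 and 92.9% of the other cells. Only 108 members had any count of it unthinned, and the 5 members with most counts held 40.4% of them, the highest with 47. DNAJC15, a mitochondrial co-chaperone, had 10 counts or 2.99 CPM against 573 and 231. XBP1, a transcription factor of the unfolded protein response, had 1 count against 332 and 352, which gave 0.299 CPM against 97.9 and 80.4. CD24, a surface glycoprotein of epithelial tumours, had 46.7 CPM against 435 and 1714, and GDF15, a secreted stress cytokine, had 13.2 against 301 and 171. USP22, a deubiquitinase of the SAGA complex, had 0 counts against 201 and 289, at least 66-fold lower than in ERBB2-high and at least 73.5-fold lower than in FOLR1-high cells.

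SH3BGRL, ASRGL1, AKR1C1, ANXA4, RPL39L, TNFRSF11B, GPRC5C, DDIT4 and SAT1 completed the 15 lowest. AKR1C1, an aldo-keto reductase, had 5.39 CPM against 397 and 95.3. AKR1C1 and AKR1C2 are near-identical, and how reads were split between them was not tested. DDIT4, an inhibitor of mTOR complex 1, had 29.6 CPM against 564 and 208, and SAT1, which acetylates polyamines, had 71.5 against 427 and 684. RPL39L is a copy of a ribosomal protein gene, and TNFRSF11B encodes the decoy receptor osteoprotegerin. The scatter of all genes shows these at the far corner from MT1E.

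**Figure D2:**
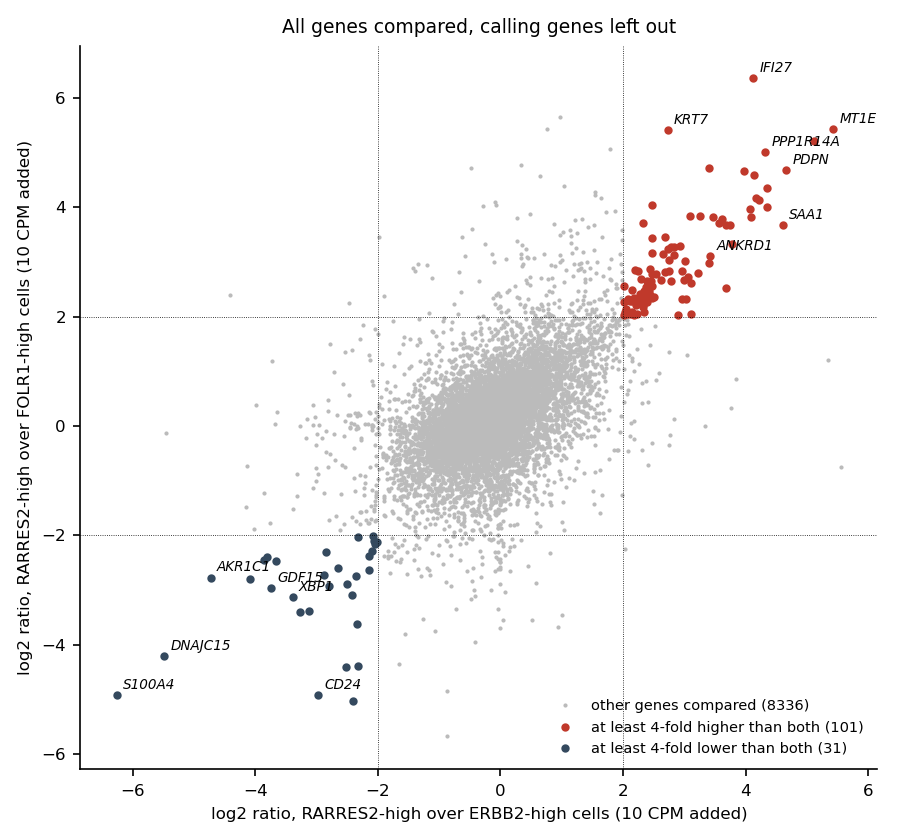
Log2 ratio of RARRES2-high to ERBB2-high cells (horizontal) and to FOLR1-high cells (vertical) for the 8468 genes compared, with 10 CPM added to each class. The 101 genes at least 4-fold higher than both classes lie in the upper right corner and the 31 genes at least 4-fold lower in the lower left.

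Keratins 7, 8 and 18, the intermediate filaments of simple epithelium, were higher in RARRES2-high cells. KRT18 had 4791 CPM against 549 and 1148, KRT8 had 1973 against 348 and 212, and KRT7 had 684 against 94.7 and 6.4. KRT19 was lower, at 489 CPM against 632 and 1692. Of 8 keratins compared, 3 were at least 2-fold higher than both classes and 0 lower. At 2000 counts KRT18 ran from 0 to 50 per member with a median of 8, while the median was 1 in both other classes.

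Epithelial and mesenchymal genes did not split cleanly. Of 12 epithelial junction and programme genes, only CDH1, the epithelial cadherin, was at least 2-fold higher than both classes, at 44.9 CPM against 8.56 and 2.51, and 0 were lower. Among the 269 cells with at least 90% of the calling counts, 0 of these genes passed that limit upwards and 1 passed it downwards. EPCAM had 104 CPM against 36.9 and 105. Of 13 mesenchymal genes, CDH11, THY1 and NT5E were higher and S100A4 was lower. THY1 and NT5E, which encode the surface antigens CD90 and CD73, had 60.5 against 2.07 and 0.228 CPM and 195 against 60.5 and 0.914. VIM, the mesenchymal intermediate filament, was lower at 1402 CPM against 4653 and 2032, under the 2-fold limit for FOLR1-high cells. ZEB1, a repressor of epithelial genes, had 26.9 CPM against 103 and 28.1.

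Genes of retinoid handling were examined because RARRES2 responds to retinoids. Of 13 compared, 4 were at least 2-fold higher than both classes and 1 was lower. ALDH1A3, which makes retinoic acid, had 144 CPM against 1.48 and 2.06. DHRS3, which reduces retinal, had 88.0 CPM against 12.1 and 31.5, and TGM2, a transglutaminase induced by retinoic acid, had 670 against 113 and 31.3. In contrast RARRES3 had 66.4 CPM against 147 and 198, and RARB, a receptor that retinoids induce, had 8.68 CPM with too few counts to be compared. Of the genes around chemerin, its receptor genes CMKLR1, GPR1 and CCRL2 had at most 2.1 CPM in every class. CD55, an inhibitor of complement, was the 1 gene of 9 in that list at least 2-fold higher, at 152 CPM against 44.8 and 13.3.

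In the BMP and TGF-beta pathways the ligand genes BMP4 and INHBA and the co-receptor gene ENG were higher. BMP4 had 51.2 CPM against 0.59 and 7.31, INHBA 38.9 against 4.72 and 0, and ENG 36.2 against 1.18 and 0.457. GDF15 was lower, and 15 of the 19 genes compared lay within the limits. Of 10 target genes, TGFBI was higher at 118 CPM against 48.4 and 0.685, and ID4 was lower at 6.88 against 49.9 and 77.7. ID2, a direct BMP target, had 31.4 CPM against 82.9 and 50.03. The YAP and TEAD list held 6 genes of 25 at least 2-fold higher and 1 lower. Beside ANKRD1, these were CTGF, a matricellular protein, at 52.4 CPM against 6.79 and 0.914, together with DKK1, CRIM1, FJX1 and ASAP1. TEAD2 was lower at 2.1 CPM against 20.9 and 22.6, and YAP1 itself had 23.05 against 65.8 and 31.5.

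Matrix and adhesion genes included 10 of 31 that were at least 2-fold higher and 3 that were lower. LAMA3, a chain of laminin-332, had 101 CPM against 13.9 and 12.6. LAMB3, another chain, had 81.7 CPM and lay between the 136 of ERBB2-high and the 2.97 of FOLR1-high cells. COL5A2 had 91.6 CPM against 4.72 and 0.457, LAMA4 48.8 against 0.885 and 1.14, and TIMP3, a metalloproteinase inhibitor, 44.0 against 1.18 and 0.914. MMP7, a matrix protease of epithelium, was lower at 6.58 CPM against 42.5 and 329, as were COL4A1 and COL18A1. Of 12 integrin subunits, ITGA2, ITGB4 and ITGB8 were higher. Only 1 subunit passed the limit among cells with at least 90% of the calling counts, and only 1 with 50 CPM added. ITGB8, which activates latent TGF-beta, had 210 CPM against 17.995 and 34.04, and ITGB4, the laminin-332 receptor subunit, had 221 against 96.5 and 54.1.

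Of 13 ovarian tumour and Mullerian lineage genes compared, 5 were at least 2-fold higher than both classes and 2 were lower. The whole list summed to 2186 CPM, against 2594 in ERBB2-high and 2142 in FOLR1-high cells. Of 4 mesothelial genes compared, 2 were higher and 0 lower. Among ovarian and mesothelial genes, WFDC2, which encodes the tumour marker HE4, had 64.4 CPM against 8.56 and 8.68. MSLN, mesothelin, had 17.1 CPM against 3.25 and 0.457, and MUC1 had 36.5 against 11.5 and 0.685. LYPD1 was higher as well, at 97.0 CPM against 5.02 and 1.14. The joined entry of CRIP1 and overlapping genes had 1318 CPM against 28.3 and 25.8. PAX8, a Mullerian lineage factor, differed little at 94.9 CPM against 103 and 143, and so did SOX17 at 38.9 against 42.2 and 36.1. Of 14 HOX genes, HOXA7 and HOXC10 were higher and HOXB5, HOXB6 and HOXB8 lower. HOXC10 had 51 counts, just over the minimum of 50, and 49 without the IFNB1-expressing cell described below. Among cells with at least 90% of the calling counts 0 HOX genes were higher, and with 50 CPM added 0 were higher. HOXA7 had 21.8 CPM against 0 and 0.228, and HOXB6 had 31.7 against 129 and 196. MAGEA4 and PRAME, cancer-germline antigens, were 2 of 8 genes of their list that were higher, with MAGEA4 at 160 CPM against 0 and 2.06.

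In the list of interferon-stimulated and antigen presentation genes, 13 of 31 were at least 2-fold higher in RARRES2-high cells than in both classes, beside 5.76% of all genes, and IFITM2 was lower. IFI27 had 1483 CPM (interval 1442 to 1525) against 75.8 and 8.22, and it was seen in 86.4% of members at 2000 counts, against 12.3 and 0.426%. ISG15, a ubiquitin-like modifier, had 1016 CPM against 70.2 and 169. IFI6, ISG20 and OAS3 had 290, 194 and 92.8 CPM against at most 33.1 in the other classes. Median log2 ratios over the list were 0.65 and 1.83, against -0.16 and 0.14 for all genes.

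A single member held all interferon beta counts. That cell, with 11277 counts in all, had 102 IFNB1 counts, 128 of the 129 IFNL1 counts and 79 of the 87 CCL5 counts of the class, and both other classes had 0 of each. It also had 121 ISG15, 93 IFIT3 and 51 IFIT1 counts, while the other members had medians of 4, 0 and 0. It held 10 RARRES2 and TMEM100 counts, 83.3% of its calling counts. The cell was singled out after its values were seen. Without it, 13 of the 31 interferon-stimulated genes were still at least 2-fold higher than in both classes. IFI27 was spread more evenly: 443 of 457 members had a count, and the 5 with most held 4.98%.

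Other secreted genes were also uneven between members. SAA1, an acute-phase protein, had 350 CPM against 4.72 and 18.3, but only 131 members had any count, and the 5 members with most held 39.3%. LCN2, an iron-sequestering lipocalin, had 239 CPM against 19.2 and 7.54, with 47.1% of its counts in 5 members. CCL2 was seen in 132 members, up to 32 counts, with 22.6% of its counts in 5. Of 11 cytokine and chemokine genes, CXCL5, CCL2, IL32, MDK and PTN were at least 2-fold higher than both classes and IL18 was lower. MDK, the heparin-binding growth factor midkine, had 1444 CPM against 26.0 and 620, and PTN, its relative pleiotrophin, had 144 against 2.95 and 1.83.

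The summed count per cell of genes of the G2 and M phases of the cell cycle was higher in RARRES2-high cells. At 2000 counts per cell the summed count of the 54 listed genes had a median of 17 in members (range 0 to 47), against 4 in ERBB2-high and 6 in FOLR1-high cells. The highest single cells were in the other classes, with 73 and 81, and the class sums of the list were closer, at 9348 CPM against 5546 and 5716. Of 53 genes compared, 5 were at least 2-fold higher than both classes and 0 lower, beside 5.76 and 2.76% of all genes, and among cells with at least 90% of the calling counts 9 were higher. JPT1 had 1623 CPM against 690 and 445, UBE2C, which drives mitotic exit, 438 against 123 and 160, and BIRC5, survivin, 289 against 99.4 and 73.3. Some listed genes did not rise above both classes. At 2000 counts TOP2A had a mean of 0.359 per member against 0.420 and 0.386, and CKS2 0.694 against 0.506 and 1.18. JPT1 and TUBB4B weighed most in the sum and were seen in 91.0 and 77.7% of members, so it does not count cells in these phases. Without the 5 genes highest in members the medians were 9, 2 and 4, and without the 10 highest 6, 2 and 2, so the most abundant genes held much of the sum. Of 39 S-phase genes, 0 passed the limit in either direction, and their medians per cell were 4, 2 and 4. CDK6, a G1 kinase, had 157 CPM against 35.4 and 0.914.

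For stress and detoxification genes the median log2 ratios to ERBB2-high and FOLR1-high cells were -0.92 and 0.09 for NRF2 targets and -0.71 and 0.49 for immediate early and stress genes. They were -0.05 and 0.25 for hypoxia and glycolysis genes, beside -0.16 and 0.14 for all genes. Of 13 NRF2 targets, the antioxidant programme, 0 were higher and 4 were lower: AKR1C1, AKR1C2, PGD and SLC7A11. SLC7A11, the cystine importer, had 6.88 CPM against 262 and 52.1. Of 19 hypoxia and glycolysis genes only CA12, a carbonic anhydrase, was lower, at 8.08 CPM against 99.7 and 32.9. Of 16 immediate early and stress genes, FOSL1 and HSPA1A were higher and JUND was lower. FOSL1, an AP-1 subunit, had 185 CPM against 76.4 and 11.7. Of 29 receptor tyrosine kinase pathway genes only IGFBP4 was higher and FGFR4 lower. DKK1 and DKK3, secreted WNT pathway proteins, were the 2 of 11 WNT genes that were higher, with DKK3 at 95.5 CPM against 36.6 and 5.71.

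The pool could hold cells of other types, so 16 markers of blood, immune and endothelial cells were read. Of these, 8 had 0 counts in RARRES2-high cells: CD3E, CD3D, LYZ, MS4A1, CD79A, NKG7, PECAM1 and PPBP. In ERBB2-high cells 12 and in FOLR1-high cells 10 of the markers were at 0. The whole list summed to 36.8 CPM, against 4.43 and 6.85 in the other classes. CDH5, a cadherin of endothelium, held most of the sum at 30.8 CPM against 0.295 and 3.88, while PECAM1, another marker listed, was at 0. The identity of the cells was not tested.

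Some genes had almost no counts in RARRES2-high cells and were expressed in both other classes. With at most 3 counts in the class and at least 20 CPM in both others, 19 genes qualified (0.224% of genes compared), and by the reverse rule 45 genes (0.531%) reached 20 CPM in RARRES2-high cells alone. The same rules gave 7 and 23 genes for ERBB2-high cells and 24 and 20 for FOLR1-high cells. Of the 45, IFNB1, IFNL1 and CCL5 came almost wholly from the 1 member described above. These genes were looked for after the data were seen. Neighbouring genes on the long arm of chromosome 14 were among the 19. MAP4K5, a kinase (GRCh38 chr14:50418525-50532609), had 0 counts against 140 and 102. SAV1, the scaffold of the Hippo kinases (chr14:50633636-50668331), had 0 against 104 and 101. NIN, the centrosome protein ninein (chr14:50719763-50831121), had 0 against 110 and 134. Against the 3 counts that a count of 0 allows, these 3 genes were at least 34.2-fold lower than in ERBB2-high cells and at least 25.7-fold lower than in FOLR1-high cells.

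The run went a little further on both sides. PYGL, liver glycogen phosphorylase, had 3 counts against 152 and 545, a ratio of 49.9 (interval 16.8 to 245) and 139 (interval 47.2 to 675). ATP5S had 0 counts against 50 and 62, under the 20 CPM rule in both other classes. Further out, SOS2 before ATP5S had 21 counts against 52 and 56, and TMX1 after PYGL had 122 against 176 and 235. TRIM9, between PYGL and TMX1, had 0 counts in members and in ERBB2-high cells. Any count of the 5 genes from ATP5S to PYGL was seen in 3 of 457 members (0.656%, exact interval 0.136 to 1.91%), in 347 of 627 ERBB2-high cells (55.3%) and in 484 of 730 FOLR1-high cells (66.3%). A lost segment and unexpressed genes cannot be told apart here, since DNA was not measured.

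**Figure D3:**
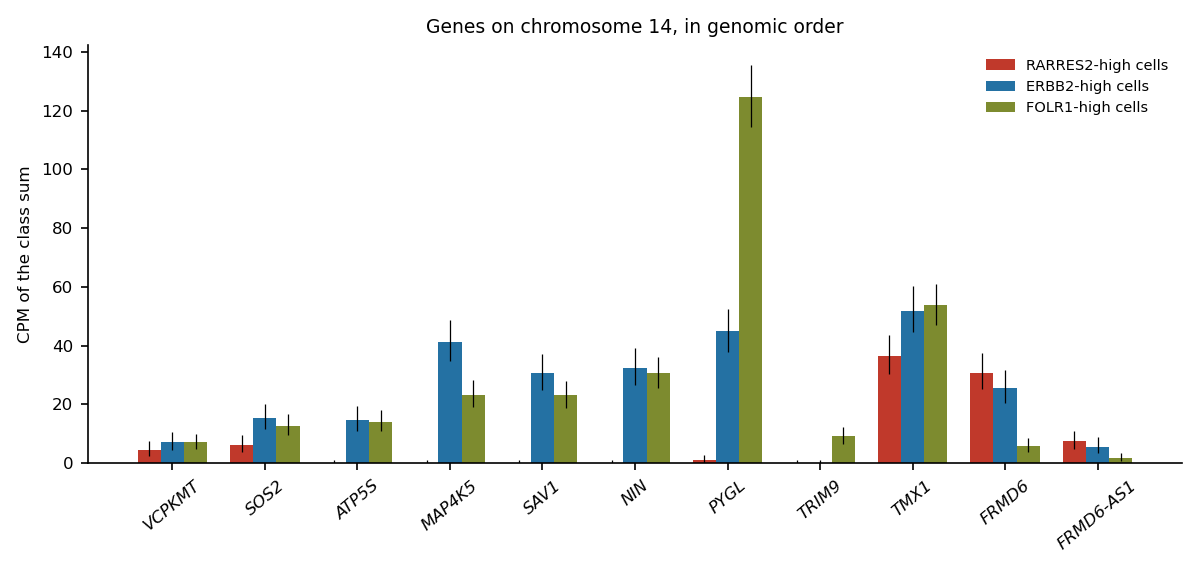
CPM of the class sum, with 95% Poisson intervals, for the genes of the chromosome 14 run and their flanks, in genomic order, with 1 bar per class. ATP5S, MAP4K5, SAV1, NIN and TRIM9 have 0 counts in RARRES2-high cells, and TMX1, further along, has 36.5 CPM.

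A further stretch of neighbours lay on chromosome 19. The entry that joins ZNF544 and ZNF8, zinc finger genes, had 2 counts against 420 and 215. Before it in genomic order, ZNF274 had 0 counts against 73 and 25, and ZSCAN18 had 0 against 143 and 14. ZSCAN1 and ZNF135 had 0 counts against 37 and 38 in ERBB2-high cells, and both had 0 in FOLR1-high cells as well. Elsewhere, MAP2K7, a kinase of the JNK pathway, had 0 counts against 115 and 106. ZIC2 and SALL1, developmental transcription factors, had 3 against 468 and 119 and 2 against 85 and 165. The entry that joins MTAP with overlapping genes, on the short arm of chromosome 9, had 0.898 CPM against 36.3 and 42.95. In the 9p21 list, MLLT3 was lower as well, at 3.89 CPM against 19.8 and 34.5, and 5 of 7 genes lay within the limits. Genes of the reverse kind included SMR3B with 138 counts against 0 and 0 and CXCL6, a chemokine, with 179 against 1 and 0.

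By variance over mean, which can rise with the mean, RARRES2-high cells varied among themselves most in FTH1, the ferritin heavy chain that stores iron. At 2000 counts FTH1 ran from 5 to 304 per cell with a median of 51, and its variance was 27.9 times its mean. The median ratio over 583 genes with a mean of at least 0.5 was 1.16, and 44 genes (7.55%) were over 2. SAA1 came next at 8.22 times: 83.7% of members had no count, and its highest count was 25. S100A6, NEAT1, KRT18, CAV1, FGFBP1, CXCL1, TMSB4X, ISG15, MT2A and VIM completed the 12 most variable genes by this ratio. For FTH1 the ratio was 12.7 in ERBB2-high and 12.5 in FOLR1-high cells, and SAA1 and ISG15 were also lower in both. MT2A and VIM had higher ratios in ERBB2-high cells (5.28 and 3.99) than in members (3.29 and 3.06). TMSB4X, KRT18 and CXCL1 had higher ratios in FOLR1-high cells than in members. VIM ran from 0 to 15 with a median of 2, and NEAT1, a nuclear long non-coding RNA, from 0 to 29 with a median of 1.

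**Figure D4:**
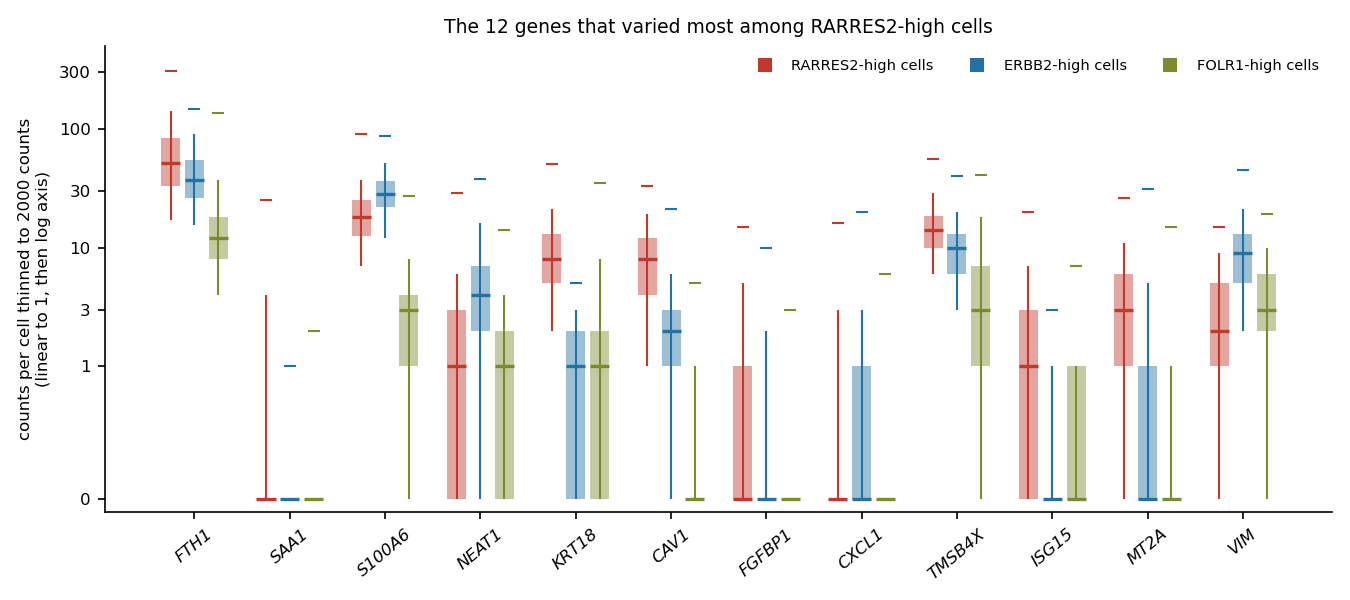
Counts per cell at 2000 counts for the 12 genes with the highest variance over mean in RARRES2-high cells. Both other classes are beside them, on an axis linear to 1 and logarithmic above. Boxes span the quartiles with the median as a bar, lines run from the 5th to the 95th percentile and dashes mark the highest cell; FTH1 has a median of 51 and a highest value of 304 among 435 members, and SAA1 is at 0 in 83.7% of them.

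Several of these genes varied together over the 435 members, which share 1 library and were thinned to the same depth. KRT18 and KRT8, which pair in filaments, had a Pearson correlation of 0.57, and NEAT1 and MALAT1, both nuclear RNAs, 0.52. NEAT1 also correlated with mitochondrially encoded genes, at 0.40 with MT-ND3 and MT-CO3 and 0.38 with MT-CYB, and its most opposed gene was TUBA1B at -0.27. The part of RNA or cell quality in this was not tested. MT2A and MT1E correlated at 0.47, although reads of near-identical metallothioneins may be split between them. FTH1 correlated with S100A6 and LCN2 at 0.43 each and with VIM at -0.33. ISG15 correlated with IFI6 at 0.42, and CXCL1 with CXCL6 at 0.40.

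Members were also read by their FTH1 level, a split chosen after the data were seen, so it is a description only. The genes given are those most correlated with or most opposed to FTH1 in the same cells, which fixes the direction of each difference. The 110 members with at least 83 FTH1 counts and the 111 with at most 33 had median depths of 7131 and 6867 and mitochondrial shares of 3.16 and 2.98%. With FTH1 left out of the total, LCN2 had 579 CPM in the members high in FTH1 and 55.04 in those low in it, and 5 members held 47.1% of all its counts in the class. ALDH1A3 had 271 and 39.1 CPM, and PERP, a desmosomal protein, 395 and 116. VIM went the other way with 835 and 2235 CPM, as did TPM1, an actin-binding tropomyosin, with 604 and 1662. In a like split of the 435 members by their SAA1 count at 2000 counts, 71 members with SAA1 had 372 CPM of SOD2, the mitochondrial superoxide dismutase, and 364 members without it at that depth had 174. CCL2 had 280.3 and 146 CPM in these cells, and LCN2 156 and 257. The entry joining SAA2 and SAA4 had 212 and 9.2 CPM, but its sequence is close to SAA1 and reads may be split between them.

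Transcript shares were compared for 2450 genes with at least 100 counts in each class. In 10 genes (0.408%) a transcript's share in RARRES2-high cells was at least 30 percentage points from both other classes in the same direction. Against ERBB2-high cells alone this held for 15 genes (0.612%), and against FOLR1-high cells alone for 24 (0.98%). The median over genes of the largest share difference was 2.8 points against ERBB2-high and 3.02 points against FOLR1-high cells. Shares are the submitters' estimates, in which a read that fits several transcripts is divided.

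VPS29, a subunit of the retromer that returns receptors from endosomes, differed in its major transcript. ENST00000549578 held 40.4% of 976 counts in RARRES2-high cells (interval 37.3 to 43.5), 78.8% of 836 in ERBB2-high and 88.2% of 901 in FOLR1-high cells. ENST00000360579, with the 12-base exon shown above, held 54.6% against 16.5 and 10.2%. ECT2, which acts in cell division, had less of the transcript with the 93-base exon: ENST00000392692 held 24.1% of 411 counts against 56.8 and 71.2%. ENST00000232458 held 59.1% against 30.2 and 21.3%.

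CALD1, the actin-binding caldesmon, differed most. ENST00000393118 held 26.0% of 2179 counts (interval 24.2 to 27.9) against 73.7 and 75.1%, and ENST00000361901 held 44.1% against 7.6 and 10.4%. Using only estimates that were whole numbers, the shares of ENST00000393118 were 48.6, 87.7 and 91.5%, and those of ENST00000361901 were 13.8, 1.9 and 1.7%. That setting kept 6.33, 42.5 and 23.5% of the gene's counts, and the cause of the move was not tested. ABCD3, a peroxisomal transporter, had its full 23-exon ENST00000370214 at 52.6% of 175 counts against 87.0 and 98.7%, and the 9-exon ENST00000315713 at 47.4% against 13.0 and 1.3%. CSTF3, a cleavage factor of polyadenylation, likewise had less of its 21-exon ENST00000323959, at 36.8% of 223 counts against 77.3 and 68.2%, and more of the 3-exon ENST00000438862, at 48.2% against 19.3 and 29.3%. ORMDL1, a regulator of sphingolipid synthesis, had ENST00000392349 at 52.4% of 319 counts against 19.3 and 11.2%. LIMCH1, ATP5D and AKAP12 also passed the limit. For AKAP12 ENST00000354675 the shares were 18.99, 74.4 and 50.1%, but 22.96, 71.8 and 46.03% with whole estimates only, which lies within 30 points of FOLR1-high cells.

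**Figure D5:**
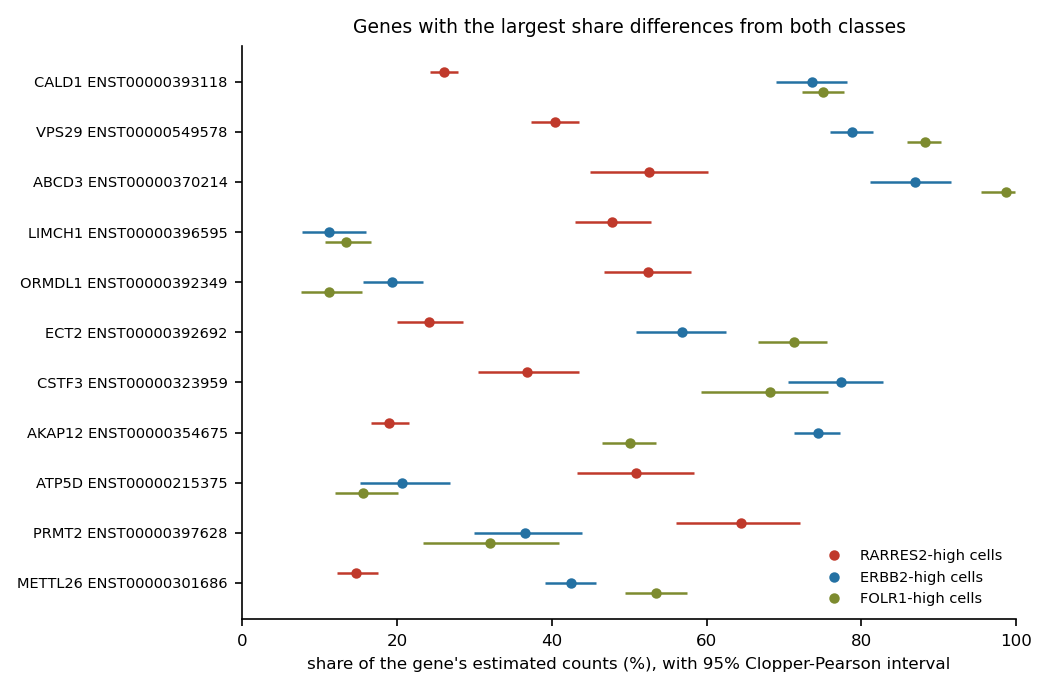
Share of each gene's counts, in percent with exact binomial intervals, held by the named transcripts in RARRES2-high, ERBB2-high and FOLR1-high cells. For VPS29 ENST00000549578 the shares are 40.4, 78.8 and 88.2%.

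Tropomyosin TPM4 used its long ENST00000344824, with the 126-base exon shown above, for 16.6% of 2105 counts (interval 15.1 to 18.3) in RARRES2-high cells, against 0.3 and 0.6%. The short ENST00000300933 held the rest, 83.4% against 99.7 and 99.4%. Other genes separated RARRES2-high from FOLR1-high cells while standing closer to ERBB2-high cells. ACOT9, a mitochondrial acyl-CoA thioesterase, had ENST00000379303, with the 27-base exon shown above, at 83.8% of 182 counts, against 70.5 and 25.7%. MYL6, a myosin light chain, had ENST00000550697 at 25.5% of 6794 counts, against 27.0 and 4.0%. Of the 30 genes listed for known alternative splicing, 21 had enough counts, and the median of their largest difference was 9.96 points, against 4.23 over all genes compared. Among 28 splicing regulators, CELF2 was higher at 16.2 CPM against 0.295 and 0, and RBM47 lower at 11.7 against 47.5 and 109.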

How the data were processed

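The authors deposited a PromethION matrix of estimated counts per transcript and cell (expected counts, not whole for reads divided among transcripts), with transcript positions, and an Illumina barcode list. Per the submitters' processing notes the genome was GRCh38 and Cell Ranger 6.0.1 was used. No label or header used here states how molecular identifiers were handled. Of the matrix entries, 39.8% were whole within 1e-06. Counts were summed per gene name, and 902 entries that join several genes (7.8% of counts) stayed as deposited. Classes were summed over cells and scaled to CPM, with 10 CPM added for ratios. Levels carry 95% Poisson intervals and shares exact Clopper-Pearson intervals, both covering counting error only, as does the floor of 3 counts. Thinning used seed 1. Depth summed to about 3341050 counts in RARRES2-high, 3389810 in ERBB2-high and 4376990 in FOLR1-high cells.

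The members and the gene lists were chosen with earlier results of these data known. Named genes were the 25 highest and 15 lowest by ratio to both classes, up to 5 members a list, the 12 most variable, and the genes with the largest share differences. A few items are not reported here. Other list members named beside them were chosen after their values were seen. Exons came from GENCODE 29. The ratio and share scripts were tested on simulated data. Python 3.11.15, numpy 2.4.6, scipy 1.17.1, pandas 2.3.3, scanpy 1.11.5 (for Scrublet, expected doublet rate 0.02) and matplotlib 3.10.9 were used. Alternatives were other class limits, added CPM, count minimums, fold and share limits, scaling, thinning depths, and fits without doublets or without the IFNB1 cell, the last added after seeing the data.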

Additional observations from a re-analysis of the deposited data

How the results depend on the processing

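With 1 library, no setting tests variation between samples. No paired analysis was possible because each platform has 1 library and no result comes from a test. With at least 90% of the calling counts there were 269 RARRES2-high cells with a median of 5898 counts, and with at least 5 calling counts the median was 7134.5. Median genes per cell were 647 at 1000 counts, 1772.5 at 4000 and 2392 without thinning. Genes at least 4-fold higher and lower than both classes (101 and 31) became 256 and 174 with 1 CPM added, 24 and 5 with 50 CPM added, 488 and 234 at 2-fold, 25 and 5 at 8-fold, and the higher ones 64 at a minimum of 200 counts. Scaling by medians of ratios gave 113 and 26, sharing 99 and 24 genes with the main calls. Leaving mitochondrial and ribosomal genes out of the total gave 123 and 45, sharing 99 and 31, and moved the median log2 ratio of all genes against FOLR1-high cells from 0.14 to -0.08; ribosomal genes held a median of 14.8% of a member's counts and 26.8% of a FOLR1-high cell's. Genes with a transcript share at least 30 points from both classes (10) became 26 at 20 points, 0 at 50 points, 4 at a minimum of 300 counts and 6 as a mean of cells. The share of TPM3 ENST00000368533, higher by 16.2 and 17.6 points, turned to -13.2 points against ERBB2-high and -2.38 against FOLR1-high cells when only whole estimates were used. That setting kept only 12 of the 2214 counts of the gene in RARRES2-high cells, with 29 counts in ERBB2-high and 56 in FOLR1-high cells. The cause of the turn was not tested. Without the IFNB1 cell, HOX genes at least 2-fold higher fell from 2 to 1, because HOXC10 went from 51 to 49 counts, under the minimum of 50.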

Other observations

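Genes higher in RARRES2-high cells were unevenly spread over chromosomes, a count made after the data were seen. On chromosome 7, 50 of 371 genes (13.5%) were at least 2-fold higher than both other classes, and the median log2 ratio was 0.57 against ERBB2-high and 0.26 against FOLR1-high cells. On chromosome 17 it was 52 of 492 genes (10.6%), with medians of 0.12 and 0.21. The share differed along chromosome 17: 18.6% of 102 genes between 60 and 80 Mb and 22% of 50 genes beyond 80 Mb were higher, against 4.4% of 91 genes between 20 and 40 Mb, where 7.69% were lower. On chromosome 4, 8 of 310 genes were higher, and the medians were -0.64 and -0.13. Over all genes compared 5.76% were higher, with medians of -0.16 and 0.14. Genes on a chromosome are not independent, and DNA copy number was not measured.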
